A study of Mus musculus with 20 samples.

Results

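A set of 10 genes that write, copy or erase DNA methylation were followed through mouse colon organoids: Dnmt1, Uhrf1, Uhrf2, Hells, Dnmt3a, Dnmt3b, Dnmt3l, Tet1, Tet2 and Tet3. They were matched by the gene name that the array files give to each probe, and all were among the 21424 genes that passed the filter on dim probes. Organoids are small epithelial structures grown from crypts in a gel. These came from 2.5 cm of proximal colon of male mice around 40 days old that carried a heterozygous Braf allele which Cre recombinase turns into BrafV600E (Braf+/LSL), an oncogenic form of the kinase BRAF. EV organoids had received the lentiviral backbone alone. BRAF organoids had received Cre by lentivirus and were studied 5 months after induction of the oncogene. Selected organoids were BrafV600E organoids that had been picked for growth in base medium, which lacks the niche factors that keep stem cells. Lines 1, 2 and 3 of each of these 3 types were profiled after 48 h in the medium named ENSW and after 48 h in base medium, which gave 6 groups of 3 arrays. The culture medium held conditioned media with Wnt3a, R-spondin and Noggin, and EGF. Wild-type organoids gave 1 array in each medium and entered no test. The labels number the lines but do not say how many mice they came from, so p-values measure the spread between lines, which may in part be technical. The main fit pooled this spread over the 6 groups and counted both media of a line as independent arrays.

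In dividing cells, methylation on cytosines followed by guanine is copied at each round of DNA replication. Uhrf1 binds DNA with methyl groups on 1 strand behind the fork and brings Dnmt1, the maintenance methyltransferase, and Hells is a chromatin remodeller that the process needs at packed DNA. Dnmt3a and Dnmt3b add methyl groups to unmethylated sites, with Dnmt3l as a partner that has no catalytic activity of its own. Tet1, Tet2 and Tet3 oxidise the methyl group, which starts its removal. In the gut, crypt cells divide and their offspring stop dividing as they differentiate, so the copying machinery is a feature of the crypt.

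The arrays read each transcript through a 60-base probe. The 3 sequences that follow are probes of the members that moved most with the medium: the sole probes of Hells and Dnmt1 and the second probe of Uhrf1. They are shown because each measures 1 stretch of its transcript, and a value here is a statement about that stretch. In mm9 coordinates, as the files give them, the Uhrf1 probe A_66_P120074 lies at chr17:56451668-56452321 on the plus strand, the Hells probe A_51_P351970 at chr19:39039914-39039973 on the plus strand and the Dnmt1 probe A_51_P195573 at chr9:20711973-20712341 on the minus strand. The genomic span of the Uhrf1 and Dnmt1 probes, 654 and 369 bases, is longer than the 60-base probe. An mm9 gene annotation was not used here, so the exons are not named.
Uhrf1 A_66_P120074: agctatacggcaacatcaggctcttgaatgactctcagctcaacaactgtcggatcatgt
Hells A_51_P351970: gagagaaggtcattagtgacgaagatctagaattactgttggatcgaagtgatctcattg
Dnmt1 A_51_P195573: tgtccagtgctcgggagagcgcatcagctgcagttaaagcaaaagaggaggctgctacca

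The 10 genes had 20 probes, 18 of which passed the filter, and the brightest probe stood for its gene. The values given for Uhrf1 come from a brighter probe than the one shown, A_55_P2035286 (chr17:56462770-56462829, mm9). A level is the log2 processed signal of the probe minus the 75th percentile of its array, so 0 is a signal brighter than most probes of that array. Levels of different genes are not set against each other, because probes differ in brightness. The probes of 8 of the 10 genes were well above background on all 18 arrays. The exceptions were Uhrf1 (17 of 18) and Hells (16 of 18), and the missing arrays were all of EV organoids in base medium.

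On the 20 arrays, 59.6% to 65.2% of spots were well above background, and arrays of 1 group correlated with each other at r = 0.944 to 0.988. That correlation runs over genes, which are no replicates. All 8 epithelial marker genes, Epcam and Cdh1 among them, were above background in all 6 groups. They moved with the groups: 4 of 8 were higher in base than in ENSW medium in EV organoids (all genes 23.4%). In base medium 6 of 8 were lower in selected than in EV organoids (all genes 23.2%), with a median of -1.49. The part of these markers in the results was not tested. Lyz2 of the blood markers, Cdh5 and Tek of the 4 endothelial markers, and Col1a1, Pdgfra and Dcn of the 6 mesenchymal markers were not well above background on any of the 18 arrays. EV arrays shared no slide with BRAF or selected arrays, so in comparisons with EV organoids the type and the slide cannot be told apart. Both arrays of a culture, the organoids of 1 type and line, always sat on the same slide. Selected line 1 stood apart from selected lines 2 and 3 over the whole array, and its Tet1, Tet2 and Tet3 values are given beside those results.

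Uhrf1 fell steeply in EV organoids in base medium, to below background in 1 line, and no selected culture showed such a fall. In ENSW medium its level was 2.40, 2.54 and 2.51 in EV lines 1, 2 and 3, and in base medium it was -1.88, -3.14 and -5.39. The last value was not well above background. BRAF lines read 1.02, 2.47 and 1.71 in ENSW medium and 0.69, 0.28 and -0.26 in base medium. Selected lines read 1.91, 2.13 and 1.95 in ENSW medium and 2.48, 1.87 and 2.18 in base medium. In base medium the 3 organoid types did not overlap, with EV lowest, BRAF in between and selected highest. In ENSW medium the BRAF lines spanned the selected lines and reached into the range of the EV lines. The wild-type arrays read 2.42 in ENSW and -3.33 in base medium, which is inside the range of the EV arrays for base medium.

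Hells took the same order. EV lines 1, 2 and 3 lay at -0.87, -0.68 and -0.31 in ENSW medium and at -4.40, -5.91 and -5.06 in base medium, where lines 2 and 3 were not well above background. BRAF lines lay at -1.93, -0.55 and -1.16 in ENSW medium and at -2.16, -2.63 and -2.72 in base medium. Selected lines lay at -1.34, -0.76 and -1.01 in ENSW medium and at -0.82, -0.92 and -0.65 in base medium. Again no type overlapped another in base medium, while in ENSW medium all 3 types overlapped.

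Dnmt1 moved the same way over a smaller range and stayed well above background on all 18 arrays. EV lines gave 1.60, 1.49 and 1.60 in ENSW medium and -0.19, -0.19 and -0.49 in base medium. BRAF lines gave 1.33, 1.69 and 1.20 in ENSW medium and 1.30, 0.64 and 0.18 in base medium. Selected lines gave 1.58, 1.47 and 1.60 in ENSW medium and 1.93, 1.49 and 1.68 in base medium. BRAF line 1 was close to its ENSW level in base medium, whereas BRAF lines 2 and 3 were about 1 log2 unit lower. For Dnmt1 too, the types did not overlap in base medium. For these 3 genes and those below, the share of all genes with groups apart is not given. Many genes differed in base medium: by limma 31.0% of all genes were called between BRAF and EV organoids and 48.2% between selected and EV organoids.

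**Figure D1:**
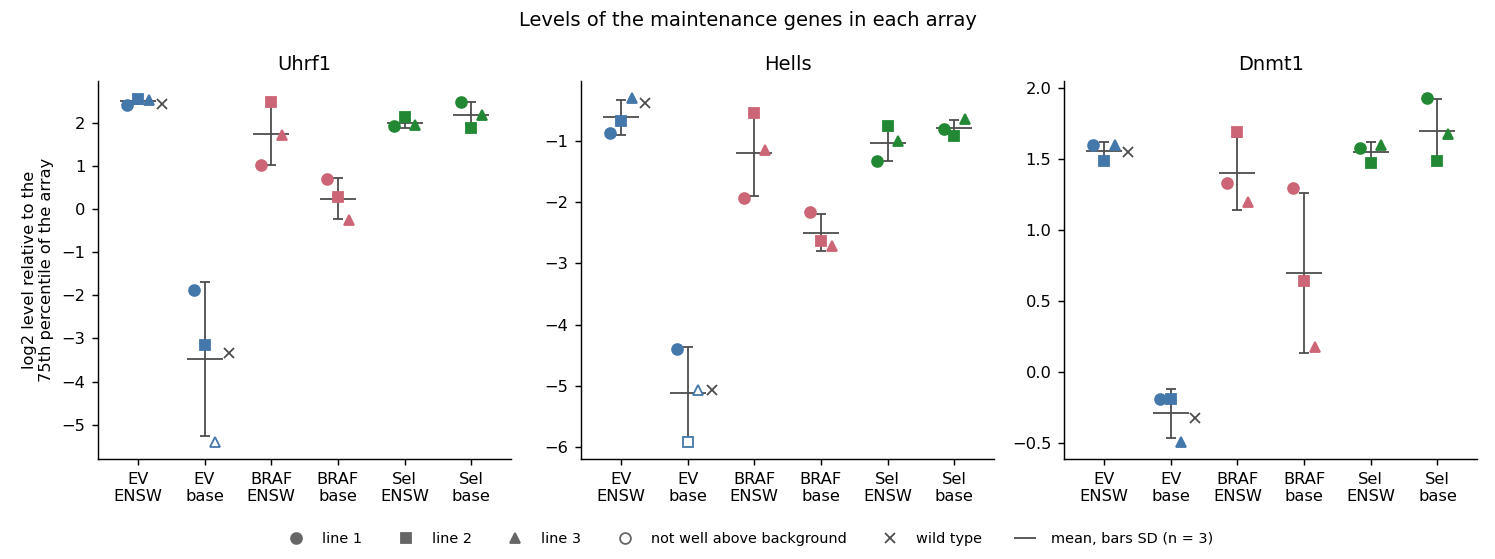
Log2 level of Uhrf1, Hells and Dnmt1 on each array, with the 75th percentile of its array set to 0, by organoid type and medium. Points are lines, open points were not well above background, crosses are the single wild-type arrays, and bars are the mean and SD of 3 lines. In base medium EV lines sit lowest (Uhrf1 -5.39 to -1.88), BRAF lines in between (-0.26 to 0.69) and selected lines highest (1.87 to 2.48).

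The first comparison asked what control organoids do without niche factors. In EV organoids base medium lowered Uhrf1 by 5.95 ± 0.625 on the log2 scale (standard error, SE; 3 lines per medium; limma adjusted p = 1.53e-05). Hells fell by 4.50 ± 0.366 (adjusted p = 5.08e-06) and Dnmt1 fell by 1.85 ± 0.23 (adjusted p = 4.1e-05). Tet2, the eraser with the clearest change, rose by 1.22 ± 0.29 (adjusted p = 0.00397). Of the 10 genes 4 changed at an adjusted p under 0.05, 1 up and 3 down, against 42.2% of all genes (23.4% up and 18.8% down), so the share of changed members was near that of the array. The median difference was -0.06 over the members and 0.19 over all genes. Dnmt3b, uncalled on its brightest probe, was called lower with the mean of its probes (-1.23 ± 0.326, limma adjusted p = 0.00759). The second Uhrf1 probe fell by 6.41 ± 0.782 (adjusted p = 3.73e-05). The sizes depended on the treatment of background, with 1 Uhrf1 value and 2 Hells values of EV lines in base medium not well above it. With the authors' values and with normexp the difference was -4.98 and -4.28 for Uhrf1 and -2.64 and -1.74 for Hells, called in both.

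The fall was present in each line. The base minus ENSW difference of Uhrf1 was -4.28, -5.68 and -7.90 in EV lines 1, 2 and 3. That of Hells was -3.53, -5.23 and -4.76, and that of Dnmt1 was -1.79, -1.68 and -2.09. Line 1 sat on another slide than lines 2 and 3, and on that slide the differences were also negative.

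Genes of the cell cycle moved with these 3 in the same arrays. In EV organoids 20 of 20 cell cycle markers fell in base medium (all genes 18.8%), with a median difference of -4.57. Mki67, a marker of dividing cells, differed by -3.43, -4.92 and -6.69 in lines 1, 2 and 3, and Mcm6, a part of the replication helicase, by -3.69, -4.13 and -5.88. The summed level of the 20 markers, on the linear scale relative to the 75th percentile, was 137 to 152 on EV arrays in ENSW medium and 4.38 to 14.3 in base medium. It was 62 to 149 and 34.8 to 68 on BRAF arrays, and 98.2 to 119 and 110 to 160 on selected arrays. Markers of differentiated colonocytes moved the other way: base medium raised 7 of 8 in EV organoids (all genes 23.4%), by a median of 3.90. Their summed level was 55.4 to 340 on EV arrays in ENSW medium and 1190 to 2390 in base medium, 31.7 to 41.8 and 159 to 457 on BRAF arrays, and 19.6 to 24.8 and 21 to 27.3 on selected arrays. The summed level of the 7 blood markers was 40.4 to 62.3 on EV arrays in base medium and 18 to 33.1 on the other 15 arrays. Such a sum rests most on the brightest genes. Of the 5 blood markers that passed the filter, base medium raised 2 in EV organoids (all genes 23.4%). Their median difference was 0.28, against 0.19 over all genes. The part of dividing, differentiated or blood cells in the values of Uhrf1, Hells, Dnmt1 and Tet2 was not tested. In RNA from whole organoids, fewer cells that express a gene and less RNA per cell cannot be told apart.

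In BRAF organoids base medium moved the same genes less, and no call was made. Uhrf1 differed by -0.33, -2.20 and -1.98 in lines 1, 2 and 3, Hells by -0.23, -2.08 and -1.56, and Dnmt1 by -0.03, -1.05 and -1.02. All 9 values were negative, and in each gene line 1 was the culture with the smallest difference. The fitted differences were -1.50 ± 0.625 for Uhrf1 (limma adjusted p = 0.221), -1.29 ± 0.366 for Hells (adjusted p = 0.0882) and -0.70 ± 0.23 for Dnmt1 (adjusted p = 0.127). Of the 10 members 0 were called, against 1.67% of all genes. Unadjusted, 3 members had a p under 0.05. Here and below, counts at an unadjusted p are given without the share of all genes at that threshold. Dnmt1 (adjusted p = 0.0167) and Hells (0.0148) passed the threshold once the culture entered as a random block, a fit that weighs both media of 1 culture against each other and calls 19.1% of all genes. Without BRAF line 1 in base medium they passed it too (0.0129 and 0.047), and normexp called Uhrf1 (0.0333) and the authors' values called Hells (0.0365).

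In selected organoids the medium made no detectable difference to any of the 10 genes. Uhrf1 differed by 0.56, -0.26 and 0.23 in lines 1, 2 and 3, Hells by 0.52, -0.16 and 0.35, and Dnmt1 by 0.35, 0.01 and 0.08. Signs were mixed for Uhrf1 and Hells, and all 3 values for Dnmt1 were above 0. By limma 0 of 10 members were called, against 0.00467% of all genes, which is 1 gene. Unadjusted, 0 members had a p under 0.05. The largest fitted difference among the members was that of Dnmt3a, -0.43 ± 0.461.

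**Figure D2:**
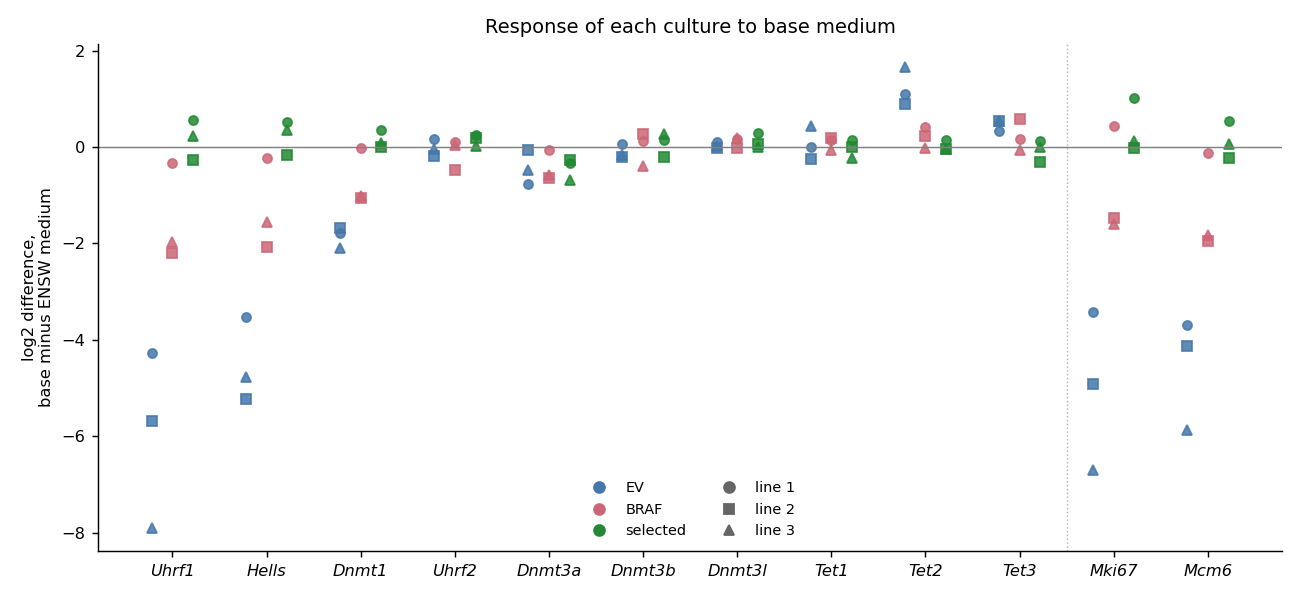
Log2 difference between base and ENSW medium for each culture, by gene, with colours for organoid type and symbols for line. Uhrf1, Hells and Dnmt1 lie far below 0 in EV lines, as do the cell cycle genes Mki67 and Mcm6 to the right of the dotted line, while Tet2 lies above 0 in all 3 EV lines (0.89 to 1.66) and selected cultures lie between -0.69 and 0.56 for the 10 members.

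The next comparison asked whether the response to base medium differed between organoid types, by an interaction test in the same fit. The response of Uhrf1 was higher by 4.46 ± 0.884 in BRAF than in EV organoids (adjusted p = 0.0233) and that of Hells by 3.22 ± 0.518 (adjusted p = 0.0131). These were 2 of 10 members, against 3.53% of all genes called (2.98% higher and 0.551% lower). Dnmt1 was higher by 1.16 ± 0.325 and missed the threshold (adjusted p = 0.0612). It passed with the line number as a block (0.0432), with the culture as a random block (0.00634), with slide as a random block (0.0391), with normexp (0.0248), with the authors' values (0.0437) and without BRAF line 3 in base medium (0.0213). With that culture block, which calls 19.8% of all genes here, Tet2 was called as well (-1.01, adjusted p = 0.0161). The call of Uhrf1 was lost without EV line 1, 2 or 3 in ENSW medium, BRAF line 1 or 3 in ENSW medium or BRAF line 1 in base medium (adjusted p 0.0514 to 0.0723), and with slide as a fixed block (0.0513). With normexp the Uhrf1 difference was 2.95, still called. The call of Hells was lost with normexp (0.99, adjusted p = 0.0505), its value with the authors' signals was 1.62 (called), and both were lost when BRAF and EV arrays alone were fitted (0.0746 for Hells and 0.0872 for Uhrf1). Cell cycle markers differed in the same contrast, 15 of 20 higher with a median of 3.34.

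Between selected and EV organoids the response differed for 4 of the 10 genes, against 24.2% of all genes (13.8% higher and 10.4% lower). Uhrf1 was higher by 6.13 ± 0.884 (adjusted p = 0.000566). Hells was higher by 4.74 ± 0.518 (adjusted p = 0.000203) and Dnmt1 by 2.00 ± 0.325 (adjusted p = 0.00098). With the authors' values and with normexp the difference was 5.05 and 4.44 for Uhrf1 and 2.86 and 1.90 for Hells, called in both. Tet2 was lower by -1.20 ± 0.411 (adjusted p = 0.0464), and this call rested on single arrays that are named with the Tet results. In this contrast 18 of 20 cell cycle markers were higher, with a median of 4.81. The response of selected organoids was not shown to differ from that of BRAF organoids: 0 of 10 members and 0% of all genes were called by limma, with 2 members (Dnmt1 and Hells) at an unadjusted p under 0.05. The difference of Uhrf1 in that contrast was 1.68 ± 0.884 and that of Hells 1.52 ± 0.518. These 3 contrasts share arrays with each other and with the comparisons of media.

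The organoid types were then compared in ENSW medium. BRAF organoids had received Cre and EV organoids the backbone alone, and they shared no slide, so the part of the oncogene itself cannot be told apart. Between BRAF and EV organoids 0 of the 10 genes were called by limma, against 6.22% of all genes, and 1 (Dnmt3b, higher by 0.54 ± 0.251) had an unadjusted p under 0.05. The other Dnmt3b probes had the opposite sign there, A_55_P2008874 at -0.35 ± 0.295 and A_55_P2130535 at -0.44 ± 0.553. Uhrf1 differed by -0.75 ± 0.625, Hells by -0.59 ± 0.366 and Dnmt1 by -0.16 ± 0.23. Between selected and EV organoids 0 of 10 were called, against 13.8% of all genes, and 2 (Dnmt3a and Dnmt3b) had an unadjusted p under 0.05. Between selected and BRAF organoids 0 of 10 were called, against 0.607% of all genes, and 0 members had an unadjusted p under 0.05.

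In base medium the same comparison of types gave another picture. BRAF organoids were higher than EV organoids by 3.70 ± 0.625 for Uhrf1 (adjusted p = 0.000697), by 2.62 ± 0.366 for Hells (adjusted p = 0.000221) and by 1.00 ± 0.23 for Dnmt1 (adjusted p = 0.00522), and Tet2 was lower by -1.20 ± 0.29 (adjusted p = 0.00704). That was 4 of 10 members, against 31.0% of all genes (17.9% higher and 13.1% lower). The Dnmt1 call was lost when BRAF and EV arrays of base medium alone were fitted (adjusted p = 0.0821), and with the authors' values and with normexp the difference was 2.87 and 2.19 for Uhrf1 and 1.23 and 0.74 for Hells, called in both. Of the 20 cell cycle markers 19 were higher, with a median of 2.78.

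Selected organoids in base medium were higher than EV organoids by 5.64 ± 0.625 for Uhrf1 (adjusted p = 7.93e-06), by 4.32 ± 0.366 for Hells (adjusted p = 1.3e-06) and by 1.99 ± 0.23 for Dnmt1 (adjusted p = 1.07e-05). Dnmt3b was higher by 0.74 ± 0.251 (adjusted p = 0.0259) and Tet2 lower by -0.81 ± 0.29 (adjusted p = 0.0325). With 5 of 10 members called, against 48.2% of all genes (25.0% higher and 23.2% lower), the share did not stand out from the array. With the authors' values and with normexp the difference was 4.69 and 3.96 for Uhrf1 and 2.57 and 1.70 for Hells, called in both. All 20 cell cycle markers were higher, with a median of 4.34.

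Selected organoids also lay above BRAF organoids in base medium for 2 members, against 9.77% of all genes (4.63% higher and 5.14% lower). Hells was higher by 1.70 ± 0.366 (adjusted p = 0.0112) and Dnmt1 by 0.99 ± 0.23 (adjusted p = 0.0161). Uhrf1 was higher by 1.94 ± 0.625 and missed the threshold (adjusted p = 0.0648), although the 3 selected and 3 BRAF values did not overlap. It passed with normexp (0.00178) and with the authors' values (0.0126). The main fit pooled the spread of all 6 groups. The SD of Uhrf1 was 1.78 in EV lines in base medium, against 0.302 in selected and 0.479 in BRAF lines there. When selected and BRAF arrays of base medium alone were fitted, Uhrf1 was not called either. The part of the EV spread in the missed call was not tested. The Dnmt1 call was lost without selected line 1, BRAF line 2 or BRAF line 3 in base medium (adjusted p 0.0621 to 0.0645). Both calls were lost with slide as a fixed block, where the standard errors were wider. In that fit Dnmt1 was higher by 0.75 ± 0.288 (limma adjusted p = 0.168) and Hells by 1.97 ± 0.561 (adjusted p = 0.0694). Slide 4 held both selected line 3 and BRAF line 1. Within it, in base medium, the selected array was higher by 1.49 for Uhrf1, 1.50 for Hells and 0.38 for Dnmt1. In that contrast 8 of 20 cell cycle markers were higher, with a median of 1.45.

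Uhrf2, a relative of Uhrf1, did not share its course. On its brightest probe (chr19:30167958-30168017, mm9) the level was 0.15, 0.36 and 0.43 in EV lines in ENSW medium and 0.32, 0.18 and 0.39 in base medium. BRAF lines gave 0.13, 0.06 and 0.33 in ENSW and 0.24, -0.43 and 0.38 in base medium. Selected lines gave -0.38, 0.04 and 0.02 in ENSW and -0.11, 0.23 and 0.04 in base medium. Every group overlapped the next in the order of means, and none of the 12 contrasts called it. The wild-type arrays read 0.80 in ENSW and 0.58 in base medium, above all 18 other arrays. In EV organoids the medium changed it by -0.02 ± 0.197 (limma adjusted p = 0.949), and by -0.15 ± 0.209 on its second probe. Over the 18 arrays Uhrf1 correlated with Hells at r = 0.96, with Dnmt1 at r = 0.94 and with Uhrf2 at r = -0.27, and over the 15 arrays without EV organoids in base medium at 0.97, 0.90 and 0.07. The arrays share lines and slides, so these values are descriptions.

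Among the genes that set new methylation, Dnmt3a had its highest group means in selected organoids. It read -1.45, -2.31 and -1.90 in EV lines in ENSW medium and -2.22, -2.37 and -2.38 in base medium. BRAF lines read -1.75, -2.22 and -0.45 in ENSW and -1.80, -2.87 and -1.04 in base medium, a spread in which line 3 was high and line 2 low in both media. Selected lines read -0.69, -0.61 and -1.07 in ENSW and -1.03, -0.88 and -1.76 in base medium. Selected and EV lines did not overlap in either medium, while BRAF lines overlapped both. The selected minus EV difference was 1.10 ± 0.461 in each medium and missed the threshold (limma adjusted p = 0.127 in ENSW and 0.0626 in base medium). In base medium it passed with a random block for culture (0.0349), without selected line 3 (0.0428) and when the compared arrays alone were fitted (0.0223). Dnmt3a was lower in base than in ENSW medium in 9 of 9 cultures, by -0.44 in EV, -0.43 in BRAF and -0.43 in selected organoids on average, each ± 0.461 and none called.

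For Dnmt3b the answer depended on the probe. The 3 probes lie in order on the plus strand of chromosome 2 in mm9: A_55_P1975903 at chr2:153512098-153512157, A_55_P2008874 at chr2:153512991-153513050 and A_55_P2130535 at chr2:153513403-153513462. On the first, the brightest, EV lines read -1.85, -2.11 and -1.94 in ENSW and -1.78, -2.31 and -2.10 in base medium. The corresponding values were -1.19, -1.44 and -1.64, then -1.06, -1.17 and -2.03 in BRAF lines, and -1.27, -1.55 and -1.38, then -1.12, -1.76 and -1.11 in selected lines. On this probe the medium made no detectable difference in EV organoids (-0.10 ± 0.251, limma adjusted p = 0.786), and EV lines lay below BRAF and selected lines in ENSW medium without overlap.

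The last Dnmt3b probe, A_55_P2130535, behaved otherwise. It fell in EV organoids from -1.11, -1.84 and -1.34 in lines 1, 2 and 3 in ENSW medium to -3.56, -4.17 and -4.50 in base medium. In BRAF lines it read -1.58, -2.11 and -1.92, then -2.04, -3.84 and -3.26, and in selected lines -0.95, -2.48 and -2.25, then -0.86, -2.82 and -2.65. The EV groups did not overlap, and selected line 1 was above selected lines 2 and 3 in both media. The fitted fall in EV organoids was -2.65 ± 0.553 (limma adjusted p = 0.00159 over 26827 probes). The middle probe fell by 0.95 ± 0.295 (adjusted p = 0.0188). With the mean of the 3 probes the difference between media in EV organoids was -1.23 ± 0.326 (adjusted p = 0.00759). All 3 probes carry the same RefSeq accession in the files. Between selected and EV organoids in base medium all 3 probes were higher in selected organoids: the brightest by 0.74, the middle one by 0.74 ± 0.295 (adjusted p = 0.0507) and A_55_P2130535 by 1.97 ± 0.553 (adjusted p = 0.00892). For the brightest probe the call was lost with normexp (adjusted p = 0.081), when EV line 2 or 3, or selected line 1 or 3, was left out in base medium (0.0654 to 0.0911), and when the compared arrays alone were fitted (0.069). BRAF organoids were above EV organoids in base medium by 0.64 ± 0.251 on the brightest probe (adjusted p = 0.0656), which passed with the line number as a block (0.0384) and without BRAF line 3 (0.00622).

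**Figure D3:**
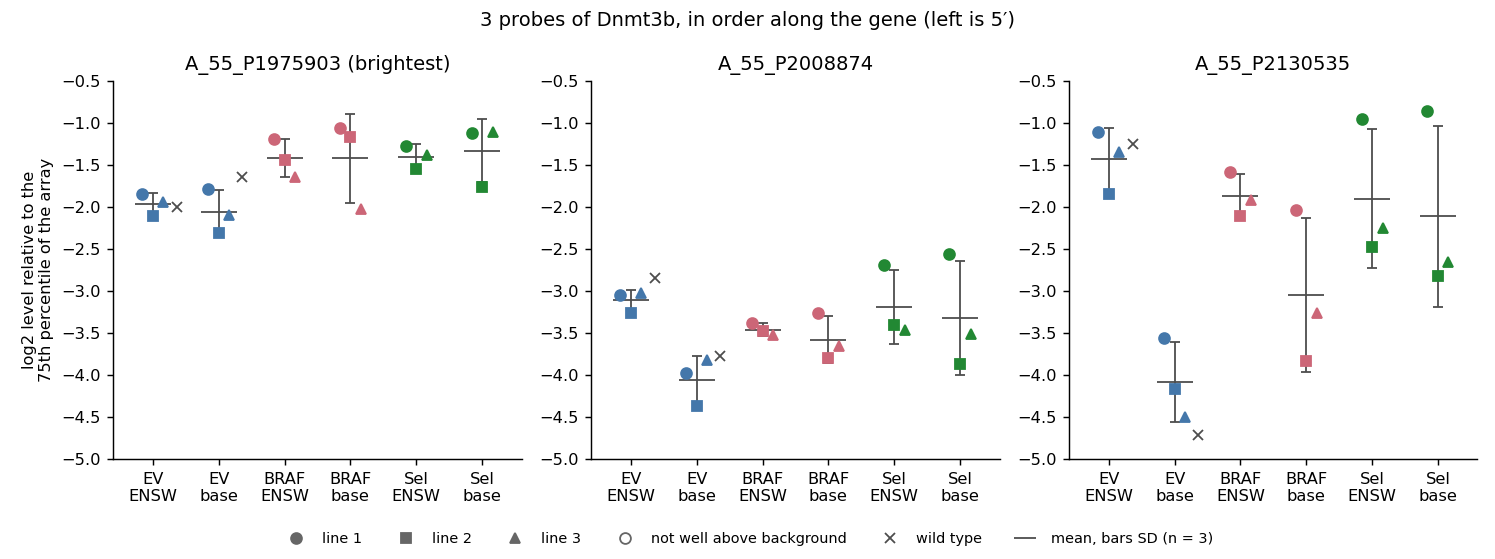
Log2 level of 3 Dnmt3b probes on each array, with the 75th percentile of its array set to 0, on a shared vertical scale. Points are lines, crosses are the wild-type arrays, and bars are the mean and SD of 3 lines. In EV organoids the left probe differed by -0.10 between media, the middle one by -0.95 and the right one by -2.65.

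Dnmt3l (chr10:77526112-77526171, mm9) stayed between -4.77 and -3.98 on all 18 arrays. Group means ran from -4.43 in selected organoids in ENSW medium to -4.20 in EV organoids in base medium, and each group overlapped its neighbours in that order. None of the 12 contrasts called it, and its difference between media was 0.04 ± 0.185 in EV, 0.11 ± 0.185 in BRAF and 0.12 ± 0.185 in selected organoids.

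Of the erasers, Tet2 moved opposite to the maintenance genes in EV organoids. EV lines read -0.10, -0.14 and -0.26 in ENSW and 1.00, 0.76 and 1.40 in base medium. BRAF lines read -0.43, -0.57 and -0.07 in ENSW and -0.01, -0.35 and -0.07 in base medium. Selected lines read 0.78, -0.14 and 0.04 in ENSW and 0.92, -0.19 and 0.00 in base medium. EV groups did not overlap between media, and in base medium EV and BRAF lines did not overlap. Selected line 1 lay inside the range of the EV lines in base medium, and selected lines 2 and 3 lay below it. The wild-type arrays read -0.19 and 1.12. The other kept Tet2 probes also rose in EV organoids, A_55_P2051405 by 1.35 ± 0.289 (limma adjusted p = 0.00195) and A_55_P2074075 by 0.72 ± 0.254 (adjusted p = 0.0333).

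The Tet2 differences from EV organoids in base medium were less firm for selected than for BRAF organoids. The call between selected and EV organoids was lost when EV line 1 or 3, or selected line 2 or 3, was left out in base medium (adjusted p 0.0617 to 0.136) and when the compared arrays alone were fitted (0.116). The call on the differing response was lost without EV line 1, 2 or 3 in ENSW medium, EV line 1 or 3 in base medium, selected line 1 or 3 in ENSW medium, or selected line 2 or 3 in base medium (adjusted p 0.0549 to 0.122). It was also lost with quantile normalization (0.056), with the authors' values (0.056), without a filter (0.0665), with slide as a fixed block (0.0631) and when the compared arrays alone were fitted (0.0829). On probe A_55_P2074075 neither BRAF nor selected organoids were called against EV organoids in base medium (-0.08 ± 0.254 and -0.24 ± 0.254). Tet2 correlated with Tet3 at r = 0.79 over the 18 arrays.

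Tet3 was not called in any of the 12 contrasts. On its brightest probe (chr6:83352743-83352802, mm9) EV lines read 1.04, 0.16 and 0.88 in ENSW and 1.37, 0.71 and 1.43 in base medium, and the difference was positive in each line (0.34, 0.55 and 0.55). BRAF lines read 0.54, -0.29 and 0.42 in ENSW and 0.72, 0.31 and 0.36 in base medium. Selected lines read 1.12, 0.42 and 0.19, then 1.25, 0.11 and 0.20, with line 1 highest in both media. In base medium the difference from EV organoids was -0.71 ± 0.357 in BRAF (limma adjusted p = 0.145) and -0.65 ± 0.357 in selected organoids (adjusted p = 0.148). With the line number as a block these passed (0.0266 and 0.0273), and without selected line 1 in base medium the latter was -1.01 (0.0304). Probe A_51_P199339 called selected organoids lower (-0.70 ± 0.224, adjusted p = 0.0185), whereas probe A_55_P2175260 gave 0.08 ± 0.144.

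Tet1 was read by 1 probe (chr10:62276042-62276101, mm9), as its other 2 probes were not well above background on any of the 20 arrays. EV lines read -2.93, -2.44 and -2.96 in ENSW and -2.94, -2.68 and -2.52 in base medium. BRAF lines lay between -2.75 and -2.34 and selected lines between -2.90 and -1.81 over both media, and selected line 1 was highest of all (-1.95 and -1.81). No contrast called Tet1, and base medium changed it by 0.06 ± 0.264 in EV, 0.09 ± 0.264 in BRAF and -0.03 ± 0.264 in selected organoids.

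**Figure D4:**
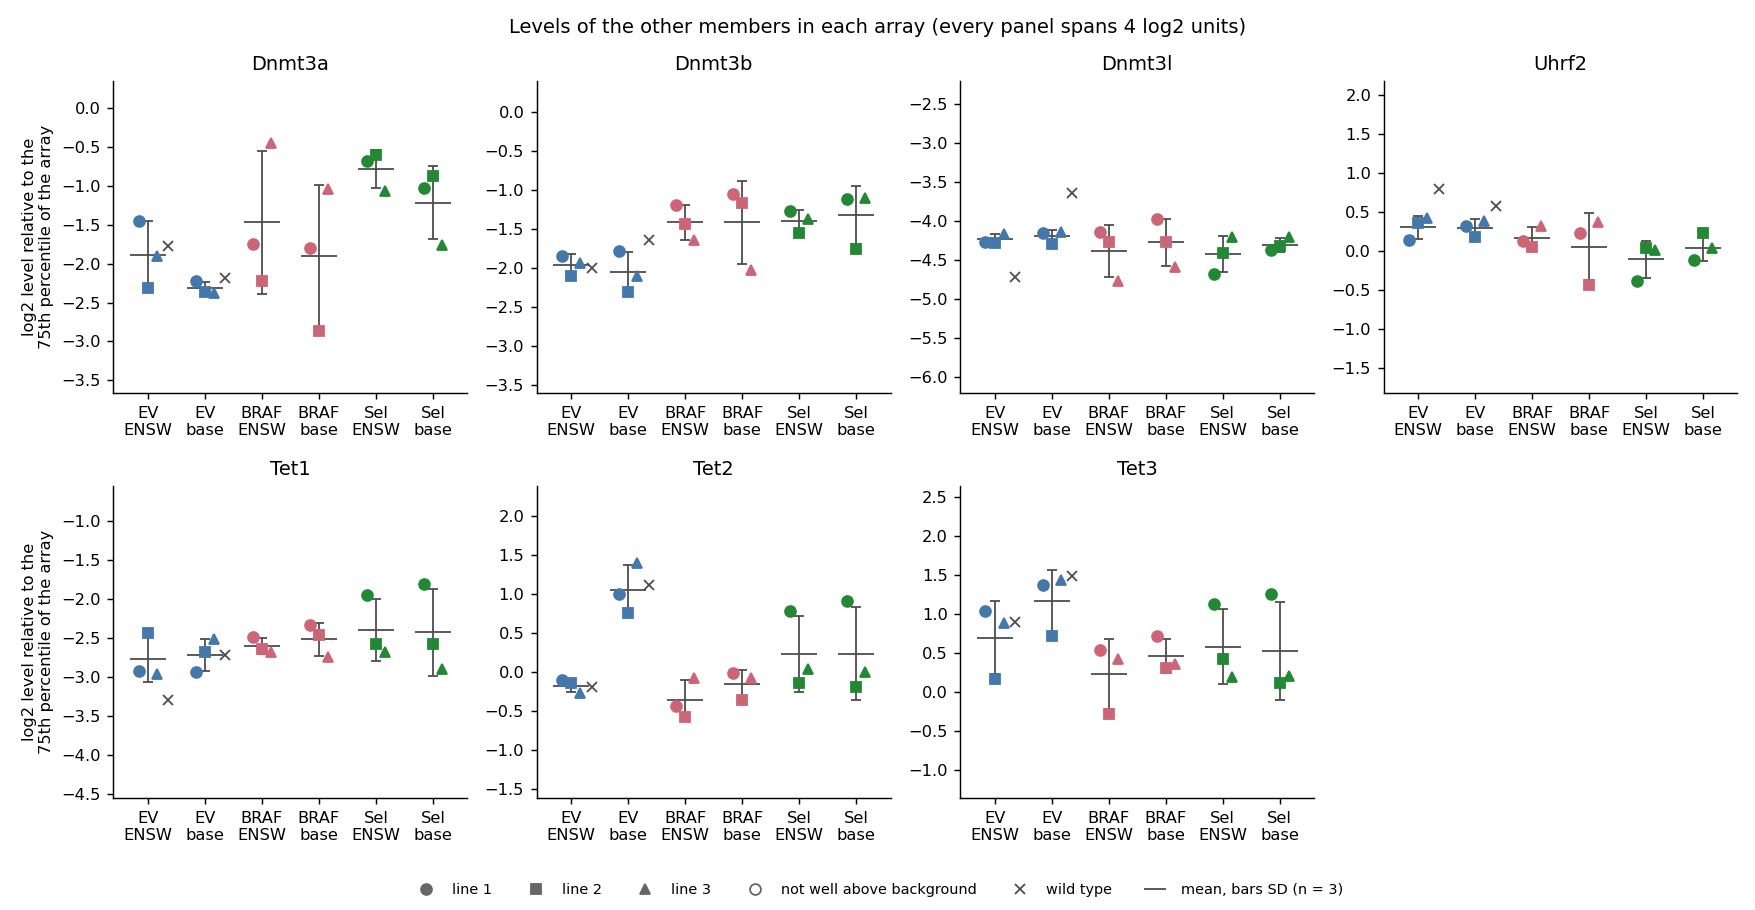
Log2 level of the other 7 genes on each array, with the 75th percentile of its array set to 0, by organoid type and medium, with the same height of scale in every panel. Points are lines, crosses are the wild-type arrays, and bars are the mean and SD of 3 lines. Tet2 in EV organoids in base medium (0.76 to 1.40) stands above EV organoids in ENSW medium (-0.26 to -0.10), and Dnmt3a reads -1.76 to -0.61 in selected and -2.38 to -1.45 in EV lines.

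Related genes were followed in 5 lists. Of 11 measured partners at the replication fork and of silencing, base medium lowered 6 and raised 0 in EV organoids (all genes 18.8% and 23.4%), with a median of -1.27 against 0.19 over all genes. Cdca7l, a relative of the Hells activator Cdca7, fell by 3.79 ± 0.209 (limma adjusted p = 4.19e-07). Trim28, a corepressor that zinc finger proteins bring to DNA, fell by 2.19 ± 0.24 (adjusted p = 1.96e-05) and Lig1, the ligase that joins newly copied strands, fell by 2.49 ± 0.276 (adjusted p = 2.09e-05). In base medium 5 of the 11 were higher in BRAF than in EV organoids and 7 in selected than in EV organoids (all genes 17.9% and 25.0%), with 0 lower in either. Cdca7l was higher by 2.95 ± 0.209 in BRAF (adjusted p = 2.95e-06) and by 4.11 ± 0.209 in selected organoids (adjusted p = 3.48e-08). Selected organoids were above BRAF organoids in base medium for 5 of the 11 (all genes 4.63%), with Cdca7l at 1.16 ± 0.209 (adjusted p = 0.00431).

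Among 9 measured genes for removal of modified bases, base medium lowered 3 and raised 2 in EV organoids, a share of called genes near the 42.2% of all genes. Apex1, the endonuclease that cuts at sites without a base, fell by 3.31 ± 0.36 (limma adjusted p = 1.91e-05) and Neil3, a glycosylase, fell by 4.17 ± 0.566 (adjusted p = 7.18e-05), while Apobec1, a cytidine deaminase, rose by 2.71 ± 0.496 (adjusted p = 0.000608). In selected against EV organoids in base medium the directions were turned, with Apex1 at 2.77 ± 0.36, Neil3 at 4.09 ± 0.566 and Apobec1 at -3.65 ± 0.496 (adjusted p at most 4.4e-05). Both comparisons use the EV arrays in base medium.

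Of the 8 genes listed as methyl-CpG binding proteins or their relatives, 2 rose, 2 fell and 4 were not called in EV organoids in base medium, again near the 42.2% of all genes. Mbd4, which also excises mismatched thymine, fell by 2.63 ± 0.33 (limma adjusted p = 4.48e-05) and Mbd3 fell by 1.47 ± 0.266 (adjusted p = 0.000561). Zbtb4, a zinc finger reader of methylated DNA, was higher in ENSW medium in both BRAF (0.92 ± 0.244, adjusted p = 0.0402) and selected organoids (1.19 ± 0.244, adjusted p = 0.00742) than in EV organoids. Among 10 genes of cofactor supply 2 rose and 2 fell in EV organoids in base medium, also near the 42.2% of all genes. Mat2b rose by 0.80 ± 0.158 and Mtr, methionine synthase, fell by 2.68 ± 0.394 (adjusted p = 0.00104 and 0.00012). Of 5 CXXC proteins, which bind unmethylated CpG, Kdm2b alone passed the test there, against 42.2% of all genes, and fell by 1.82 ± 0.585 (adjusted p = 0.0223). In BRAF organoids the change of medium called 1 gene of the 5 lists, Cdca7l (-1.26 ± 0.209, adjusted p = 0.0133), against 1.67% of all genes. In selected organoids it called none of them, against 0.00467% of all genes.

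Genes whose levels ran most like those of a member over the 18 arrays are given as descriptions, since arrays share lines, slides and the large change of EV organoids in base medium. Uhrf1 ran with Timeless, Mcm5 and Exo1 (Pearson r = 0.997 each), which act in replication and repair, and over the 15 arrays without EV organoids in base medium r was 0.981, 0.979 and 0.982. Hells ran with Ncapg2, Asf1b and Rad18 (0.985, 0.985 and 0.984), and Dnmt1 with Nup205, Dsn1 and Pole (0.982 each). Tet2 ran with Ing4 (0.94), Trim62 (0.92) and Prr14l (0.915), values that were 0.895, 0.844 and 0.801 without those arrays. Dnmt3a was most like Lhpp (0.883), Gstm7 (0.863) and Cyp26b1 (0.858), and the brightest Dnmt3b probe most like Hspg2 (0.929), Fam24b (0.928) and Rfx4 (0.917). For Tet1 they were Prom2, Zfp341 and Kcnj4 (0.894 to 0.864), for Tet3 Pbx2, Espn and Adamts17 (0.904 to 0.885), for Uhrf2 Trpm6, Purb and Cd38 (0.798 to 0.775) and for Dnmt3l Aup1, Nkx1-2 and Ptprc (0.819 to 0.77).

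Because Uhrf1, Hells and Dnmt1 moved together, their promoters were searched for the letters that the E2F factors of the cell cycle are known to bind, a choice made after their values were seen. RefSeq promoters (GRCm38.p6) of 300 bases, 250 before and 50 after each start, were found for all 10 genes. The letters TTTCCCGC, TTTGGCGC, TTTCGCGC and TTTGCCGC were searched on both strands, as was CCAAT. At least 1 of the first 4 was found at 3 of the 10 genes, Uhrf1, Hells and Dnmt1, and in 2.26% of 32851 promoter windows (2.6% of 27025 genes). CCAAT was found at Dnmt1, Uhrf1 and Tet3, and in 37.4% of windows. In Hells the match is TTTCCCGC at -62 to -55 from the start. In Uhrf1 it is TTTCGCGC at -185 to -178 from the second of its starts. In Dnmt1 it is TTTCGCGC on the minus strand at -219 to -212 and TTTGGCGC at 34 to 41 from the third of its starts. The stretches with the matches in Hells (chr19:38930840-38930989, plus strand, GRCm38.p6, bases -150 to -1) and Uhrf1 (chr17:56304093-56304242, plus strand, GRCm38.p6, bases -220 to -71) are shown with the matched letters in capitals, which in Uhrf1 include 2 CCAAT boxes. A match in letters is a description and does not show that a factor binds.
Hells: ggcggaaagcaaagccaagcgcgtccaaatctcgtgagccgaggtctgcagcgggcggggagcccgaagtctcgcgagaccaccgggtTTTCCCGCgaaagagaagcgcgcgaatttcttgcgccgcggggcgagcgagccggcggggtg
Uhrf1: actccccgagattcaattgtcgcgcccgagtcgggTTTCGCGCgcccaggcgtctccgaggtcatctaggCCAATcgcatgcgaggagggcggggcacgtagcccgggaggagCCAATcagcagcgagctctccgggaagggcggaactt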

How the data were processed

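The arrays were single-colour (Cy3) Agilent arrays of total RNA. Per the file headers, the authors' scanner files hold intensity extracted with Feature Extraction 10.7.3.1, and the processed signal used here is background-subtracted. A deposited table from the authors gives log2 values for these arrays. Its ranks of probes matched those of the unsubtracted median signal (Spearman correlation 1.0), and its column medians (5.66 to 5.68) were nearly equal, while the exact steps are not given in the sources used here. The submitters' processing notes name limma.

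Control spots (1377) and 2747 outlier spot values were left out, and 0 were saturated. Spots of a probe were averaged, and 26827 probes were kept, each well above background on 3 or more of the 18 arrays. The brightest probe stood for each of 21424 genes, with names updated through RefSeq where possible. Group means were fitted in R 4.3.3 by lmFit and eBayes of limma 3.58.1, with 12 contrasts and 12 residual degrees of freedom. P-values were adjusted over all genes by Benjamini-Hochberg, and calls needed an adjusted value under 0.05. The fit was tested on simulated data with independent noise on each array. That could not test what counting both media of a line as independent arrays does to the calls. Plots were drawn with matplotlib 3.10.9 and tables made with pandas 2.3.3 and numpy 2.4.6, under Python 3.11.15. The number of arrays limits the precision.

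The members and lists were chosen with earlier results of these data known. Named besides the members were, per member, the 3 genes most like it over the 18 arrays, up to 3 genes of each related list per contrast by smallest adjusted p, and Mki67 and Mcm6. Some genes that this rule names are not reported here.

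Both media of a culture deviated together from their group means (r = 0.423 to 0.874, 9 of 9 cultures). The labels give the same line number to EV, BRAF and selected organoids, and such arrays correlated at -0.081 to 0.374 (17 of 36 pairs over 0.1). Alternatives tried were normexp (offset 50), quantile normalization, the authors' values, no filter or a filter on 9 arrays, the mean of probes, line, culture and slide blocks, leaving out arrays or lines, fitting the compared groups alone, and, added after the data were seen, each other probe.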

Additional observations from a re-analysis of the deposited data

Results flagged for a closer look

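The response to base medium differed between organoid types by the interaction test for these results. Between BRAF and EV organoids it was higher by 3.22 for Hells and by 4.46 for Uhrf1. Between selected and EV organoids it was higher by 2.00 for Dnmt1, by 4.74 for Hells and by 6.13 for Uhrf1, and lower for Tet2 (-1.20). With normexp the Hells values were 0.99 and 1.90 and the Uhrf1 values 2.95 and 4.44 in these contrasts. The Dnmt3b probe A_55_P2130535 gave 2.43 in the latter contrast (limma adjusted p = 0.0356 over all probes), where the brightest Dnmt3b probe gave 0.17.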

How the results depend on the processing

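Over all alternatives 2416 differences of members were recomputed, and 0 called values changed direction, while 218 that were uncalled in both fits changed sign. Of these, 49 lost a call, 29 gained one, 80 that were uncalled in both fits moved by more than 1 standard error, and the other 2258 did none of these, though called values could change in size, as Hells did with normexp. The 2 members called between selected and BRAF organoids in base medium became 0 with slide as a fixed block and 1 without both arrays of selected line 1, without both arrays of BRAF line 2 or with the compared groups alone. The 0 called between media in BRAF organoids became 1 with normexp, 1 with the authors' values and 2 with the culture as a random block (19.1% of all genes). The 2 called for the response of BRAF against EV organoids became 4 with the culture as a random block (19.8% of all genes), 1 with slide as a fixed block and 0 with the compared groups alone. Leaving out 1 array at a time gave, in base medium, 4 to 5 members for BRAF against EV and 3 to 5 for selected against EV organoids. It gave 1 to 2 for selected against BRAF there, and 4 for the media in EV and 0 to 2 in BRAF organoids. For the responses of BRAF and selected against EV organoids it gave 1 to 3 and 3 to 4. In this paragraph the share of all genes is given only for the culture block, so the other changes in count are not set against the array. With the line number as a replicate block, the calls that changed were Dnmt3b (adjusted p = 0.0384) and Tet3 (0.0266) for BRAF against EV and Tet3 (0.0273) for selected against EV organoids in base medium, and Dnmt1 (0.0432) for the response of BRAF against EV organoids; no other call of a member changed. Levels near background limit the size of the Uhrf1 and Hells falls.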
